A study of Brassica rapa and Brassica oleracea and Brassica napus with 3 samples.

Results

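Genes with a methylated downstream flank only were examined, that is genes with DNA methylation beyond their 3′ end while the gene body and the upstream flank carried almost none. They were chosen by their own methylation levels, with a mean level of at least 15% over the downstream bins, under 2% over the gene body bins and under 5% over the upstream bins, each mean over at least 2 of 4 bins with a value. Of 155293 genes on numbered chromosomes, 142041 had a level in each of the 3 regions, and 6036 of these met the rule and are called members. They comprised 1805 genes of the A subgenome (An) and 2500 of the C subgenome (Cn) of *B. napus*, and 1731 genes of *B. oleracea* (Co).

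In plants, cytosines are methylated in CG, CHG and CHH contexts (H being any base but G). Transposable elements and other repeats carry dense methylation in all of these contexts, set partly by small RNAs and kept by dedicated methyltransferases. Many expressed genes carry only CG methylation inside the body, and the sequences next to the transcription start and end are usually low in methylation. Methylation in a flank therefore often marks a repeat or another silenced stretch near a gene. Methylation downstream of a gene lies where transcripts are cleaved and polyadenylated or where a neighbouring gene begins.

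DNA methylation was measured by bisulfite sequencing (BS-seq), in which unmethylated cytosines are converted and read as thymines while methylated ones are still read as cytosines. There was 1 library of each species, from 14 d young leaves of *B. napus* ZS11 and *B. oleracea* JZS, both untreated and grown in the same conditions. *B. napus* is an allotetraploid that combines A and C subgenomes, and *B. oleracea* stands for its C progenitor. Each species was 1 cultivar, so that differences between a subgenome and the diploid hold cultivar, library and ploidy together and cannot be told apart, and leaves mix cell types. The labels of the *B. napus* library describe an RNA extraction and those of the *B. oleracea* library a fixation step, whereas the methods describe bisulfite treatment of genomic DNA.

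The files gave 12 methylation levels for each gene, with 4 bins upstream, 4 in the body and 4 downstream in the direction of transcription. Flanks of 2 kb are stated for the study's profiles, which would make a flank bin 500 bp if the bins are even. Neighbouring bins within a flank held the identical level above 0 more often (0.332% to 0.714% of pairs) than bins on either side of a gene end (0.00569% to 0.0209%), so that bins of a flank may share cytosines, and distances in bins are approximate. No read coverage accompanied the levels, depth is unknown, and no sequence context is stated for the levels. Bins without a value made up 4.88% (Cn) to 8.60% (An) of all bins, and bins at exactly 0 made up 18.3% (Co) to 29.1% (An) of those with a value. With 1 library per species no test was possible between (sub)genomes, and the values below are descriptions of these libraries without replicate error.

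A methylated downstream flank alone was a more frequent state in both subgenomes of *B. napus* than in *B. oleracea*. Members made up 4.57% of An and 5.09% of Cn genes with all 3 levels, against 3.24% of Co genes. This order of the *B. napus* subgenomes over Co was found under each of 13 other settings of the rule or scaling. An and Co were nearly level, with 4.66% and 4.58%, when the lowest median bin of each (sub)genome was added to the body and upstream thresholds. The order of Cn over An was found under 11 of the 13 settings. When each (sub)genome was divided by its own mean level, 5.83% of An and 5.07% of Cn genes met the rule. When bins at exactly 0 were treated as missing, the shares were 3.78% and 3.41%, and the number of members was lower by more than 1.5 times in every (sub)genome (820 in An, 1049 in Cn and 732 in Co).

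The low share in Co went with a different background. Median gene body levels over all genes were 0.521% in An and 0.938% in Cn, against 3.47% in Co, and only 8974 Co genes were low in both the body and the upstream flank, against 16793 An and 13664 Cn genes. Among such genes, members made up 10.7% in An, 18.3% in Cn and 19.3% in Co, so that both C genomes lay above An. Adding the lowest median bin of each (sub)genome to the body and upstream thresholds left 1840 An, 2614 Cn and 2445 Co members. The shares were then 4.66% in An, 5.32% in Cn and 4.58% in Co.

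Most genes with a methylated downstream flank were not low in both the body and the upstream flank, which held for genes as a whole too. Downstream levels of 15% or more were found in 6545 An genes (16.6%), 13014 Cn genes (26.5%) and 17609 Co genes (33.0%). Members made up 27.6% of these in An, 19.2% in Cn and 9.83% in Co. Whatever their downstream level, 16793 of 39512 An, 13664 of 49096 Cn and 8974 of 53433 Co genes were low in both the body and the upstream flank. The mirrored state was an upstream flank of at least 15% with the body under 2% and the downstream flank under 5%. It was more frequent in every (sub)genome, with 3112 An (7.88%), 4416 Cn (8.99%) and 2716 Co genes (5.08%). There were 58.0 members for every 100 such genes in An, 56.6 in Cn and 63.7 in Co. Upstream levels were above downstream levels over all genes too. The medians were 4.04% against 2.08% in An, 8.86% against 5.84% in Cn and 10.4% against 7.95% in Co.

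Despite their different backgrounds, members of the 3 (sub)genomes had similar downstream levels. The median downstream level was 20.5% in An (quartiles 17.3% and 24.9%), 21.0% in Cn (17.7% and 26.2%) and 20.9% in Co (17.6% and 26.0%). These values are bounded below by the rule. Levels of at least 30% were reached by 202 An, 336 Cn and 250 Co members. At the threshold itself there was no gap in the levels, since 210 An genes lay within 1 percentage point above it and 210 within 1 point below with body and upstream flank equally low. The matching numbers were 257 and 268 in Cn, and 159 and 185 in Co.

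The profile of members rose across the gene end, as the rule requires of the body and downstream means. The median of the last body bin was 0.0916% in An, 0.0612% in Cn and 0.106% in Co. In the next bin, the first beyond the gene end, it was 12% in An, 11.6% in Cn and 11.9% in Co. The third downstream bin had the highest median in every (sub)genome, with 25.6% in An, 26.5% in Cn and 26.5% in Co, and the outermost bin was lower than that again, with 22.3% in An, 24.7% in Cn and 24.9% in Co. Over all genes the outermost bin was instead the highest downstream one, with a median of 1.27% in An, 5.16% in Cn and 7.76% in Co. The peak in the third bin was not particular to members. Genes with a downstream level of 15% or more that were not members also had their highest median there, with 24.2% in An, 24.3% in Cn and 25.3% in Co. Their outermost bin had 22.7%, 23.2% and 24.4%.

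**Figure D1:**
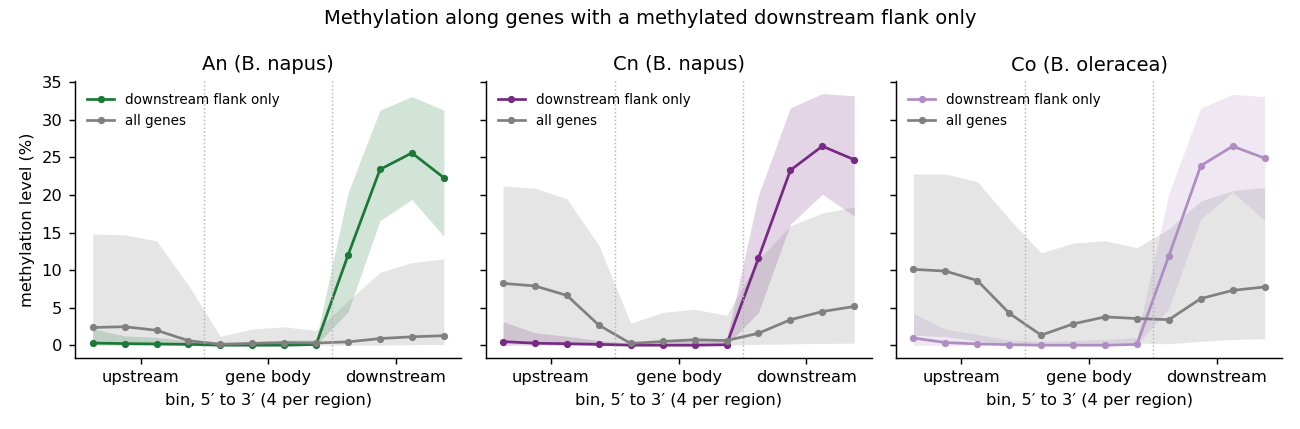
Methylation level (%) in the 12 bins along genes, 5′ to 3′, in An, Cn and Co, with lines for medians and bands for quartiles over genes; members are coloured and all genes with the 3 region levels are grey. Member medians stay near 0 up to the gene end, reach 11.6% to 12% in the first downstream bin and peak at 25.6% to 26.5% in the third.

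At the level used to call a bin, the methylated stretch began beyond the first downstream bin in most members. A bin was counted as methylated at 15% or more, and all 4 downstream bins had values in 1669 An, 2360 Cn and 1639 Co members. The first methylated bin was the one next to the gene end in 39.4% of these in An, 38.3% in Cn and 38.5% in Co. It was the second bin, which begins about 500 bp out if bins are even, in 41.3% of An, 41.7% of Cn and 43.6% of Co members. The third bin came first in 17.3% (Co) to 18.9% (Cn) and the fourth in 0.610% (Co) to 1.38% (An). The outermost bin alone must reach a high level to lift the mean of 4 bins to 15%, so that late starts are partly kept out by the rule. With bins called at 10%, the first methylated bin was next to the gene end in 55.3% of An, 55.7% of Cn and 56.2% of Co members. Whether most members began beyond the first bin thus depended on the call.

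Other genes with a downstream level of 15% or more, which reached the body or the upstream threshold as well, more often had a methylated first bin. The share was 57.4% in An, 58.4% in Cn and 67.7% in Co. The first bin was under 5% in 27.0% of An, 27.1% of Cn and 25.3% of Co members, against 15% of these other genes in An, 15.4% in Cn and 11.4% in Co. The body threshold of the rule bears on this contrast, because members had to be low up to the gene end.

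**Figure D2:**
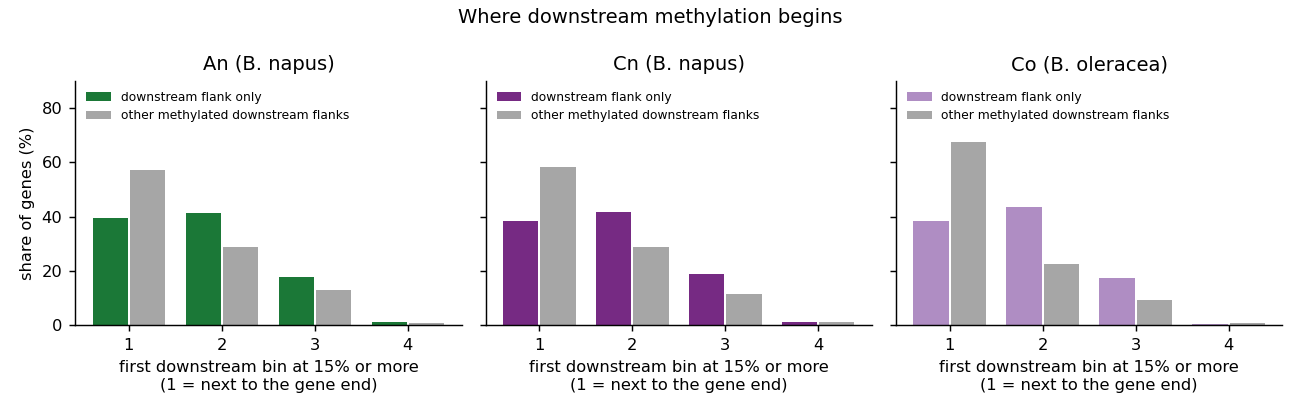
Share of genes (%) by the first downstream bin at 15% or more, counted from the gene end, for members (coloured) and for other genes with a downstream level of 15% or more (grey), in An, Cn and Co. Members most often begin in the second bin (41.3% in An, 41.7% in Cn and 43.6% in Co), whereas the other genes most often begin in the first bin in each (sub)genome.

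Once begun, methylation usually reached the outer limit of the measured flank. The outermost bin was at 15% or more in 73.8% of An, 80.2% of Cn and 79.3% of Co members. It had fallen under 5% in 8.87% of An, 6.36% of Cn and 7.44% of Co members, so that a stretch that both began and ended within the flank was the less frequent form. The most frequent arrangement was a low first bin followed by 3 methylated bins, with 30.1% of An, 33.6% of Cn and 34.7% of Co members. All 4 bins were methylated in 21.2%, 23.0% and 23.2%. Among the other genes, 4 methylated bins were the most frequent arrangement, with 35.5%, 36.8% and 48.6%. A low first bin followed by 3 methylated bins had 22.3%, 23.6% and 18.1% there. Methylated bins were interrupted by a lower one in only 3.77% of An, 4.19% of Cn and 4.27% of Co members. The shares were 6.7%, 7.41% and 6.82% in the other genes. The highest bin of a member had a median level of 32.7% (An) to 33.1% (Cn).

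These distances differed with the annotated gene end. In annotations without a 3′ untranslated region (3′ UTR) the gene row ends with the coding sequence, and the first downstream bin would then cover the untranslated sequence. Members with an annotated 3′ UTR numbered 383 in An and 442 in Cn, and the Co annotation held none. Their first downstream bin had a median of 15.1% in An and 15.3% in Cn, against 11.1% and 10.8% in members without one. Methylation from the first bin was found in 50% of An and 50.8% of Cn members with an annotated 3′ UTR, against 36.4% and 35.6% of those without one.

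Among other genes with a methylated downstream flank the order was the opposite, with 53.5% in An and 53.8% in Cn where a 3′ UTR was annotated, against 58.1% and 59.0% where none was. Inside the annotated 3′ UTR of members the median level was 0.0% in both An and Cn, and it reached 15% in 3 of 334 An and 3 of 375 Cn members with a value there. These 3′ UTR levels are partly bounded by the rule, since they lie inside the gene row.

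Named members illustrate the range of downstream profiles. They are the 5 in each (sub)genome with the highest downstream level among those with values in all 12 bins. The highest in An was BnaA07G0379700ZS on A07, with 67.7%, 86.5%, 90.8% and 97.0% in the downstream bins from the gene end outwards, giving a mean of 85.5%. All 4 of its body bins were at 0.0%, and its upstream level was 0.826%. It stood well above the next An member, BnaA03G0291900ZS, which had a mean of 61.3% over bins of 59.4%, 76.8%, 66.5% and 42.6% and 23 exon rows. BnaA06G0133600ZS, a single-exon gene on A06 with a mean of 52.7%, began low at 9.89% next to the gene end and then held 59.1%, 75.1% and 66.7%. The other An genes of this set, BnaA06G0451900ZS (53.4%) and BnaA07G0331400ZS (52.4%), likewise peaked away from the gene end.

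In Cn the highest was BnaC05G0073900ZS on C05, with 42.1%, 83.3%, 82.5% and 54.2% in its downstream bins and a mean of 65.5%. The methylated stretch began at the gene end in all 5 genes of the set. BnaC04G0359600ZS (mean 61.2%) had its highest level right at the gene end and fell outwards over bins of 87.5%, 76.5%, 58.8% and 22.0%, while its last body bin was at 1.14%. BnaC03G0231700ZS (52.0%) was also highest next to the gene, with bins of 75.4%, 69.7%, 28.0% and 34.7%. BnaC03G0616800ZS (51.0%) and BnaC02G0109500ZS (50.7%) completed the set.

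In Co, BolC06g044820.2J on C06 had the highest mean, 65.9%, with 58.8%, 73.5%, 87.5% and 43.9% in the downstream bins and a body level of 0.364%. BolC09g028160.2J (54.6%) and BolC05g013080.2J (50.6%) began at only 15.7% and 15.3% next to the gene end and rose to 75.9% and 79.8% in the third bin. BolC04g030510.2J (55.3%) and BolC09g047580.2J (50%) had 29.1% and 40.5% in the first bin. The first bin was thus above 15% in each of these 5 Co genes, although most Co members as a whole had a lower one.

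The genes nearest the threshold had downstream levels that rounded to 15% on either side of it. Just inside lay BnaA04G0239400ZS by 0.0115 percentage points, BnaC08G0290900ZS by 0.00377 and BolC01g051910.2J by 0.0021. Just outside lay BnaA09G0148300ZS by 0.00585 percentage points, BnaC07G0081000ZS by 0.000925 and BolC05g021980.2J by 0.00372. The next genes inside were BnaA05G0468100ZS, BnaC03G0303500ZS and BolC07g024940.2J, and the next outside were BnaA09G0239700ZS, BnaC04G0428900ZS and BolC07g021430.2J. Members through 2 valued downstream bins only numbered 47 in An, 34 in Cn and 30 in Co.

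Members were spread over all chromosomes. Their share ranged over the 10 An chromosomes between 3.47% and 5.49%, over the 9 Cn chromosomes between 4.51% and 5.68% and over the 9 Co chromosomes between 2.86% and 3.51%. The shares in An chromosomes varied the most (SD 0.546 percentage points), against 0.414 in Cn and 0.203 in Co. Along a chromosome, its genes were split by identifier order into 10 stretches of equal gene number, numbered 1 to 10. The member share in Co lay over these between 2.62% in stretch 6 and 3.93% in stretch 10. In these stretches methylated downstream flanks as a whole lay the other way, with 42.9% of Co genes in stretch 6 and 18.9% in stretch 10.

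In *B. napus* the course differed between the subgenomes. In An stretch 4 held 5.36% members, the highest share, and 21.5% methylated downstream flanks, stretch 2 held 3.77%, the lowest, and 15.8%, and stretch 9 held 4.72% and 10.9%. In Cn stretch 6 held 4.45% members and 33.8% methylated downstream flanks, and stretch 10 held 5.64% and 16.4%. In Cn and Co the lowest member share thus lay in stretch 6, where methylated downstream flanks were most frequent, and the highest in stretch 10. Other stretches broke this order, such as stretch 5 in Cn (5.47% members, 29.7% flanks) and stretch 1 in Co (3.03%, 24.6%). An did not follow it. Bodies at 20% or more, which the rule leaves out, were also most frequent in stretch 6 (13.1% in Cn, 25.6% in Co) and least in stretch 10 (5.04%, 8.02%).

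The gene lying on the downstream side of a member was looked up in Co. There the order of coding sequence rows against the bins gave the orientation of 83.4% of genes. Genes with a single such row had no orientation, and they were more frequent among members. A downstream neighbour was available for 1305 of 1731 members and 44679 of 53433 genes. The comparisons therefore leave out single-exon members and single-exon genes. The downstream neighbour had a body level of 20% or more for 222 of 1305 members (17.0%), against 18.0% for all Co genes, and the upstream neighbour for 183 of 1307 (14.0%), against 18.6%. The difference on the downstream side changed sign when the level for a methylated body was set to 30% or when genes with a methylated upstream flank only were the comparison. Genes with a methylated upstream flank only had methylated neighbours on the upstream side in 16.1% and on the downstream side in 13.6%.

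A neighbour within the flank shares cytosines with the downstream bins of the member, so that these values are not independent of the rule, and distances between genes were not in the files. Without regard to side, a gene next to a member had a body level of 20% or more for 10.4% of An, 17.7% of Cn and 28.6% of Co members, against 8.74%, 17.3% and 30.7% of all genes.

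**Figure D3:**
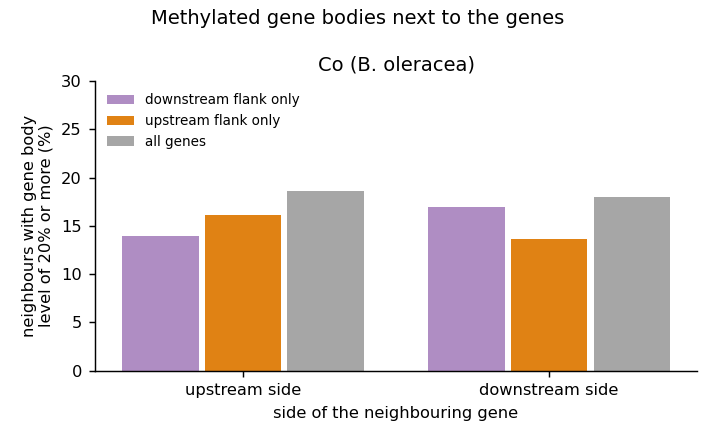
Share of neighbouring genes (%) with a body level of 20% or more in Co, by the side on which the neighbour lies, for members (downstream flank only), genes with a methylated upstream flank only and all genes. Each set holds only genes with a known orientation, which leaves out single-exon genes. On the downstream side the share is 17.0% for members, 13.6% for the upstream class and 18.0% for all genes, and on the upstream side it is 14.0%, 16.1% and 18.6%.

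Among Co genes with a known orientation, which leaves out single-exon genes, members less often had a neighbour in the opposite orientation. This held on the downstream and on the upstream side. The downstream neighbour was convergent, with its own 3′ end towards the member, for 460 of 1132 Co members (40.6%), against 49.8% of all genes. Where the neighbour was convergent, it was itself a member in 38 cases (8.26%), against 2.36% for all genes with a convergent neighbour. A pair of convergent members was counted from each of its genes, so that these cases are not separate pairs. Convergent genes share the sequence between them, so that both can draw on the same methylated cytosines. Whether this accounts for the higher share was not tested. The upstream neighbour was divergent, with its own start towards the member, for 454 of 1097 Co members (41.4%), against 49.7% of all genes. Such a divergent neighbour was itself a member in 24 cases (5.29%), again counted from each gene of a pair, against 2.33% for all genes with one. The flank of the downstream neighbour that faced the member was at 15% or more in 40.3% of Co members, against 34.7% of all genes.

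Members lay next to another member more often than genes as a whole. A gene next in identifier order was also a member for 10.7% of An, 13.3% of Cn and 9.02% of Co members. The background over all genes was 8.95% in An, 9.91% in Cn and 6.32% in Co. Genes with a methylated upstream flank only had a member next to them in 12.9% in An, 11.9% in Cn and 8.24% in Co.

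Exon number was a feature the rule did not use, and single-exon genes were more frequent among members. Exons were counted as exon rows in *B. napus* and as coding sequence rows in Co, so that the numbers of the 2 species are not alike. Genes with a single such row made up 24.2% of An, 27.5% of Cn and 19.6% of Co members. Over all genes with the 3 levels the shares were 20.4%, 21.2% and 13%. The median number was 3 in members of each (sub)genome, against 3 in all An and Cn genes and 4 in all Co genes. Genes with a methylated upstream flank only lay closer to members in Co, with 18.4% single-exon genes, than in Cn, with 22.4%. An annotated 3′ UTR was present in 21.2% of An and 17.7% of Cn members, against 20.4% and 16.9% of all genes.

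The state of homoeologs was taken from sets of genes that the study matched to each other across genomes, of which the An, Cn and Co genes were used and are called a triplet. The first 1998 sets of the study's table were at hand, almost all with their An gene on A01 or A02, so that the values describe those chromosomes. They contained 104 An, 123 Cn and 91 Co members, or 5.31%, 6.28% and 4.59% of the triplet genes with levels. The homoeologs' levels played no part in choosing a member. At least 1 member was found in 269 triplets.

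On the levels as deposited, downstream methylation was shared most often between Cn and Co, the subgenome and the diploid of the C lineage. Among homoeologs of Cn members, 59 of 121 in Co (48.8%) had a downstream level of 15% or more, against 19.1% of all Co triplet genes. The share was 28 of 119 in An (23.5%), against 14.1%. Seen from Co members, the share was 52 of 89 in Cn (58.4%), against 20%, but 18 of 90 in An (20%), against 14.1%. The lead of Co over An among homoeologs of Cn members depended on the scaling. The shares were 32.6% in Co and 29.9% in An when each library was divided by its mean level, and 32.2% and 31.9% when each (sub)genome was. For homoeologs of Co members the lead was found under both scalings, with 67.1% in Cn and 29.2% in An when libraries were divided by their mean, and 66.1% and 32.8% when (sub)genomes were. Under both scalings the Co homoeologs of Cn members also lay below the Cn homoeologs of An members. The shares of all triplet genes at 15% or more were not recomputed under the scalings. Whether the excess over them depended on the scaling is therefore not known.

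Among homoeologs of An members, 38 of 103 in Cn (36.9%) were at 15% or more, against 20% of all Cn triplet genes, and 32 of 104 in Co (30.8%), against 19.1%. These shares lay further apart under scaling, with 43.5% in Cn and 23.3% in Co when libraries were divided by their mean, and 34.1% and 21.2% when (sub)genomes were. Measured against the backgrounds on the levels as deposited, the excess was 16.9 percentage points for Cn homoeologs and 11.7 points for Co homoeologs of An members. It was 29.6 points for Co homoeologs of Cn members and 38.5 points for Cn homoeologs of Co members, and 9.45 and 5.92 points for the An homoeologs of Cn and of Co members.

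A closer comparison used homoeologs of genes with the same low body and upstream levels but a downstream level under 15%, a comparison chosen after the values were seen. Of these, 8.46% of 579 Co homoeologs of Cn genes and 9.93% of 413 Cn homoeologs of Co genes were at 15% or more. Between the subgenomes the shares were 16.2% of 784 Cn homoeologs of An genes and 8.01% of 574 An homoeologs of Cn genes. Between An and Co they were 15.1% of 788 Co homoeologs of An genes and 9.59% of 417 An homoeologs of Co genes. In each of these pairs the homoeologs of members lay above.

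**Figure D4:**
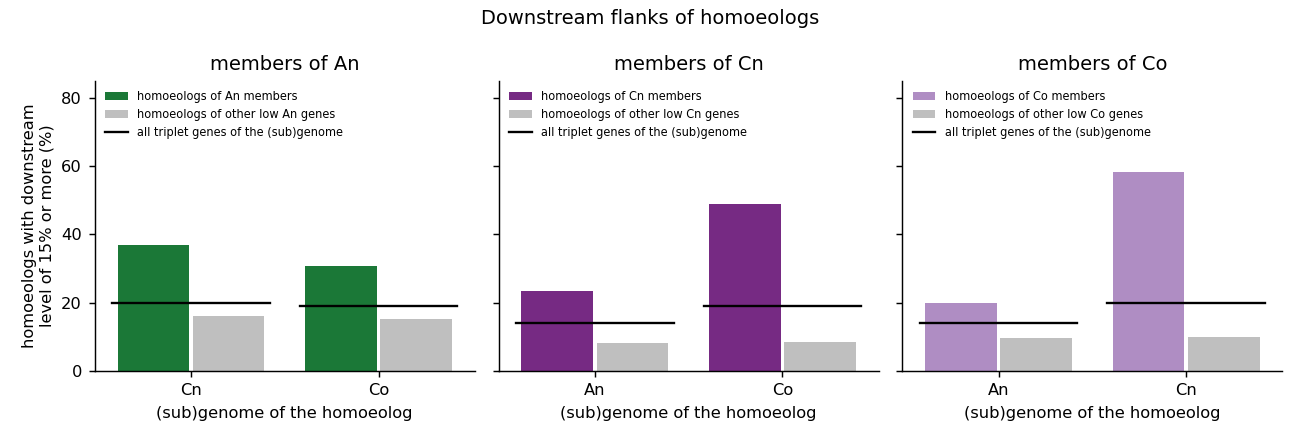
Share of homoeologs (%) with a downstream level of 15% or more, by (sub)genome of the homoeolog, for members of An, Cn and Co; grey bars give homoeologs of other genes with equally low body and upstream levels and a downstream level under 15%, and black lines all triplet genes of that (sub)genome. The highest bars are Cn homoeologs of Co members (58.4%) and Co homoeologs of Cn members (48.8%), and the lowest of the member bars is An homoeologs of Co members (20%).

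Low homoeologs were most frequent where the member was a C gene and the homoeolog an An gene. A downstream level under 5% was found in 50% of An homoeologs of Co members and in 44.5% of An homoeologs of Cn members, against 64.7% of all An triplet genes, but only in 19.1% of Cn homoeologs of Co members, against 57.3% of all Cn triplet genes. Among Co homoeologs the share was 19.8% for Cn members and 33.7% for An members, against 54.0% of all Co triplet genes. The highest median downstream levels of homoeologs were 17.0% in Cn homoeologs of Co members and 14.9% in Co homoeologs of Cn members.

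The other medians were 11.5% in Cn homoeologs and 8.23% in Co homoeologs of An members, 6.02% in An homoeologs of Cn members and 5.13% in An homoeologs of Co members. Over all triplet genes the medians were 1.79% in An, 3.06% in Cn and 3.98% in Co. Homoeologs were lower than the members in each downstream bin. This is partly fixed by the rule, since members were chosen by a high downstream level and homoeologs were not. Except in the Cn homoeologs of An members, the medians of homoeologs were highest in the outermost bin, where those of the members had fallen again. In Cn homoeologs of Co members the median was 5.23% in the first downstream bin and 17.4%, 18.8% and 19.3% further out, where the Co members had 8.56%, 22.9%, 27.0% and 25.1%. In An homoeologs of Co members it was 0.428% in the first bin and reached 5.19% in the outermost.

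Where a homoeolog was methylated downstream, it was not always in the flank alone. Of the 59 such Co homoeologs of Cn members, 30 met the full rule, 11 had upstream methylation of 5% or more as well, 16 had a body level of 2% or more and 2 had both. Of the 52 such Cn homoeologs of Co members, 30 met the rule, 12 had upstream, 6 body and 4 both in addition. Among the 38 Cn homoeologs of An members there were 16, 12, 4 and 6, and among the 32 Co homoeologs of An members 7, 10, 6 and 9. The body level of 2% was more often passed in Co, where the median body level over all genes was above it.

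Both genes of a pair were members in 30 triplets for Cn and Co (24.4% of Cn and 33.0% of Co members). The number was 16 for An and Cn (15.4% of An and 13% of Cn members), which come from 1 library, and 7 for An and Co (6.73% of An and 7.69% of Co members). Over all triplet genes with levels, 5.31% of An, 6.28% of Cn and 4.59% of Co genes were members, so that the shares for An and Co lay near this background. By triplet, a single member was found in 224 triplets, 2 in 41 and 3 in 4. The most frequent combination of members was Cn with Co alone (26 triplets), followed by An with Cn (12) and An with Co (3).

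Across all triplets, not members alone, downstream levels were most alike in the same pair. Pearson's r over 1944 triplets was 0.605 for Cn and Co (Spearman's rho 0.615). It was 0.31 over 1930 triplets for An and Cn (rho 0.381) and 0.267 over 1945 triplets for An and Co (rho 0.322). These are descriptions across genes, which are not independent replicates, and An and Cn share a library.

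**Figure D5:**
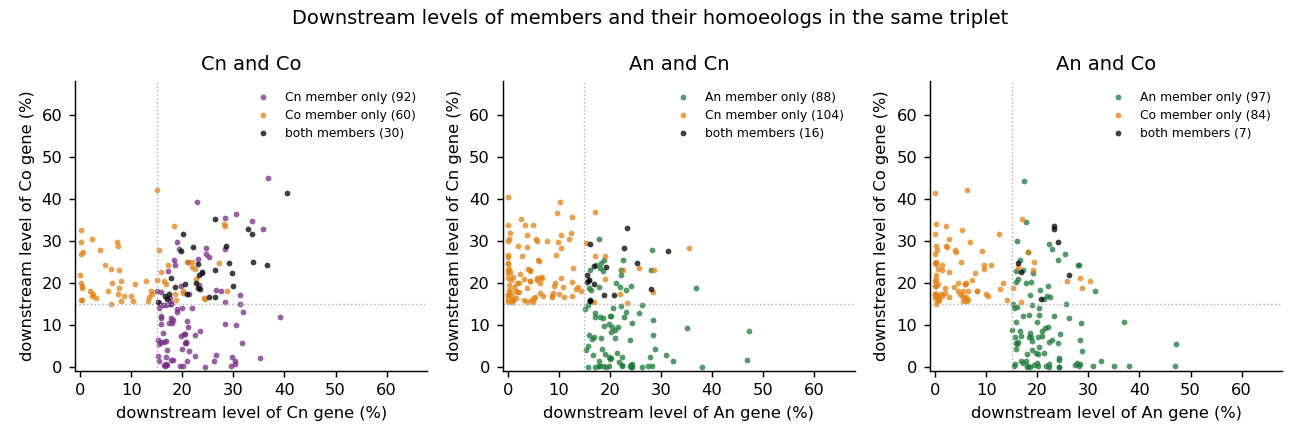
Downstream levels (%) of the 2 genes of a pair for Cn and Co, An and Cn, and An and Co, showing triplets with a member in the pair, each point being 1 triplet and dotted lines the 15% threshold; triplets lacking a level in either gene are left out. Points with both genes as members number 30, 16 and 7, and the Cn and Co panel has the most points above both lines.

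Where both genes of a pair were members, their first methylated bins were compared. In Cn and Co the first methylated bin was the same in 16 of 26 pairs with complete bins and differed by at most 1 bin in 25. In An and Cn it was the same in 6 of 16 pairs and within 1 bin in all 16, and in An and Co it was the same in 3 of 7 pairs and within 1 bin in 6. Since about 4 in 10 members begin in the first bin and as many in the second, the same start is frequent in any case, and starts within 1 bin of each other more so.

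All 3 genes were members in 4 triplets. In one, on A02 and C02, BnaA02G0182500ZS (An) had a downstream level of 23.3% and BnaC02G0239900ZS (Cn) 32.9%, against 32.8% for BolC02g026230.2J (Co). The C genes thus lay together above the An gene. The bins of the Cn gene were 0.0%, 49.7%, 46.2% and 35.8% and those of its Co homoeolog 11%, 46.1%, 40.0% and 34.2%, whereas the An gene was methylated from the gene end at 23.5%, 27.8%, 20.4% and 21.6%.

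In the second, on A01 and C01, BnaA01G0169900ZS (An) had 20.8% and BnaC01G0218100ZS (Cn) 17.0%, against 16.2% for BolC01g022720.2J (Co). The An gene had 0.136%, 22.4%, 31.1% and 29.6% in its downstream bins, so that it began in the second bin and reached the outer limit. The Cn gene had 20.4%, 23.2%, 18.9% and 5.32% and the Co gene 10.4%, 26.5%, 25.2% and 2.83%, and both were low in the outermost bin.

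The third triplet, also on A01 and C01, had its level climb outwards in all genes. BnaA01G0365200ZS (An) had 11%, 16.3%, 17.9% and 22.5%, a mean of 16.9%. BnaC01G0455800ZS (Cn) had 18.0%, 20.7%, 26.8% and 29.9%, a mean of 23.9%, against 9.69%, 24.7%, 26.2% and 29.5% and a mean of 22.5% in BolC01g050180.2J (Co). All 3 genes had 2 exon rows, counted as coding sequence rows in Co.

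The fourth triplet consisted of single-exon genes on A02 and C02 that were methylated from the gene end. BnaC02G0336700ZS (Cn) was highest next to the gene and had 49.2%, 29.1%, 19.1% and 19.4%, a mean of 29.2%, against 33.1%, 24.2%, 17.8% and 23.5% and a mean of 24.7% in BolC02g037220.2J (Co). BnaA02G0251100ZS (An) was lower, with 16.8%, 19.9%, 18.8% and 9.27% and a mean of 16.2%.

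Pairs of An and Cn were then ranked by their downstream difference among triplets where exactly 1 of these genes was a member and both had values in all 12 bins. Larger differences occurred in triplets without a member, which were not considered. Of the 4 pairs with the largest difference, 3 had the higher level in An. BnaA01G0089800ZS (An) had 12.1%, 44.2%, 41.8% and 89.3% in its downstream bins, a mean of 46.9%, while its Cn homoeolog BnaC01G0109600ZS had a mean of 1.60% and its Co homoeolog BolC01g011350.2J 0.230%. BnaA01G0314700ZS (An, 47.2%) stood against BnaC01G0388900ZS (Cn, 8.48%), and here too the Co homoeolog BolC01g042450.2J was low, at 5.27%. The highest bin of the An gene was the second, at 68.4%.

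In the third of these triplets BnaA01G0159300ZS (An) had 24.7%, 36.6%, 50.3% and 40.3%, a mean of 38.0%, against 0.0183% in BnaC01G0203500ZS (Cn), and BolC01g021150.2J (Co) had 0.198%. The Cn and Co genes were instead methylated upstream, at 18.0% and 12.3%. The fourth triplet had the opposite sign, with 33.6% in BnaC01G0407900ZS (Cn) against 0.0% in BnaA01G0330000ZS (An), beside 31.6% in BolC01g044840.2J (Co). Reads of near-identical homoeologs can be placed on the wrong copy, and the part of this in the An and Cn levels was not tested.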

How the data were processed

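BS-seq libraries of young leaves (*B. napus* ZS11 and *B. oleracea* JZS, 1 each) were used, and results that would need another library are not given. The authors used Fastp for read filtering and BatMeth2 for alignment, and deposited the methylated fraction of cytosines in 12 bins of each annotated feature. Mapping was to the ZS11 genome according to the methods, whereas rows carry the identifiers of each species' annotation, and the build for *B. oleracea* is not given in the sources used here. No coverage, sequence context or normalization between libraries is stated, so depth is unknown and no interval is given for a level.

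Fractions of gene rows were converted to percent and assigned to An, Cn or Co by identifier. Bin direction was checked against untranslated region rows, of which 100.0% of 5′ UTR rows shared the upstream bins and 75.6% of 3′ UTR rows the downstream bins of their transcript in *B. napus*. In Co, gene orientation was read from the order of coding sequence rows against the bins, which gives none for single-exon genes, and neighbours are by identifier order. Members, lists and comparisons were chosen with earlier results of these data known, and nothing was tested, since each group is 1 library. Named are the 5 members per (sub)genome with the highest downstream level and 12 valued bins, every triplet with members in all 3 (sub)genomes, the 4 An and Cn pairs with the largest downstream difference among those with 1 member and 12 valued bins in both genes, and the genes nearest the threshold. Alternatives changed the thresholds, missing bins, summary, scaling, triplets and comparisons. Some of the steps, not all of them, were tried on simulated data. Figures were made in matplotlib 3.10.9. The calculations ran in Python 3.11.15 with scipy 1.17.1, pandas 2.3.3 and numpy 2.4.6. No gene names were matched to the identifiers, and no sequence was read. Other data types of the study were not used here.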

Additional observations from a re-analysis of the deposited data

How the results depend on the processing

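Of 216 values recomputed under other settings, 154 stayed within set bounds, 60 moved and 2 changed sign. The bounds were 1.5 times the reported count, or an interval for the reported share, median or difference. These intervals count genes as independent and hold no replicate error. No paired analysis was possible because each species was 1 library. Counts of members moved with the downstream threshold, with 3033 An, 3895 Cn and 2672 Co genes at 10% and 963, 1423 and 969 at 20%, and with bins at 0 treated as missing (820, 1049 and 732). With an upstream threshold of 2%, 1125 Co genes were left. Triplet genes alone, a far smaller set, held 104, 123 and 91 members. The upstream class held 5000 An genes with a flank threshold of 10%, and 1785 An, 2751 Cn and 1717 Co genes at 20%.

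The share of members methylated from the first bin was 29.6% in An, 30.2% in Cn and 29.9% in Co at a downstream threshold of 10%, and 50.6%, 49.2% and 49.3% at 20%. It was 55.3%, 55.7% and 56.2% with bins called at 10%, and 25.7%, 24.7% and 25.7% with bins called at 20%, so that no one distance describes the start. Treating bins at 0 as missing gave 45.1% in An and 42.8% in Cn, dividing libraries by their mean 42.7% in An, 41.3% in Cn and 35.6% in Co, and dividing (sub)genomes by theirs 43.5% in An and 34.8% in Co. The cause of these moves was not tested.

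With homoeologs called at 10%, the share was 53.4% for Cn homoeologs of An members, 45.2% for Co of An, 36.1% for An of Cn and 66.1% for Co of Cn. Called at 20%, it was 22.3% for Cn of An, 10.9% for An of Cn, 28.1% for Co of Cn, 10% for An of Co and 40.4% for Cn of Co. A member threshold of 10% gave 37.9% for Co of Cn and 46.0% for Cn of Co, and one of 20% gave 58.6% for Co of Cn, with a median level of 17.7%, 68.9% for Cn of Co and 30.4% for An of Co. Treating bins at 0 as missing gave 36.8% for An of Co, over 19 homoeologs. Dividing libraries by their mean gave 32.6% for Co of Cn, and dividing (sub)genomes by theirs gave 32.2% for Co of Cn, 21.2% for Co of An and 32.8% for An of Co. The mean level of An homoeologs of Co members was 7.4%, against a median of 5.13%.

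Set against homoeologs of genes low in the body and upstream with a downstream level under 15%, the excess for Co homoeologs of Cn members was 40.3 percentage points. The excess of single-exon genes over the upstream class was 1.17 points in Co. The excess of methylated downstream neighbours in Co was -4.35 points with bodies called at 10%, 0.307 at 30% and 3.37 over the upstream class, against -1.04 as reported, so that its sign was not settled. The unknown depth limits single genes most, in particular those at 0 or with few valued bins. The alternatives for neighbours and for homoeologs of genes with a downstream level under 15% were chosen after seeing the data.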

Other observations

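Genes outside the numbered chromosomes did not meet the rule. Of 3153 *B. napus* genes on scaffolds none had a level in all 3 regions, and 97.7% of their bins lacked a value. Of 620 unanchored *B. oleracea* genes 144 had all 3 levels, and 0 of these met the rule.

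Genes with a methylated upstream flank only were arranged much like a mirror image of the members. Counted outwards from the gene start, their first bin at 15% or more was the one next to the gene in 37.0% of An, 39.5% of Cn and 37.9% of Co genes with complete bins, and the second bin in 45.1%, 43.8% and 44.6%. The outermost upstream bin was at 15% or more in 75.7%, 79.8% and 81.3%. These values were not compared by a test.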
